A study of Mus musculus with 6 samples.

Results

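The mitochondrial ribosomal protein genes were taken as every gene symbol of the deposited RPKM table that begins with Mrpl or Mrps and a number, without pseudogene names ending in -ps. This gave 76 of the 52089 symbols in the table, on 470 rows. Of these, 49 encode proteins of the large subunit of the mitochondrial ribosome and 26 proteins of the small subunit. *Mrps30* and *Mrps18a* carry small subunit names but sit in the large subunit and were counted there, while *Mrps36*, the remaining member, was named as a ribosomal protein and is now known as an adaptor of the oxoglutarate dehydrogenase complex. With a mean of at least 1 RPKM over the 6 libraries, 75 members were tested among 11701 genes, and *Mrps36* was not.

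The mitochondrial ribosome translates the few mRNAs of the mitochondrial genome, which encode core subunits of the respiratory chain and ATP synthase. Its rRNAs come from mitochondrial DNA, whereas all of its proteins are encoded in the nucleus, translated in the cytosol and imported. Part of these proteins descends from the bacterial ribosome and part was gained in mitochondria, and brown and brite adipocytes, which burn fuel through the uncoupling protein Ucp1, depend on a high content of respiratory chain.

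RNA was measured in primary brite adipocytes grown from the stromal-vascular fraction of the inguinal white fat depot (129SvEv mice). Induction took 2 days and was followed by 1 day of differentiation, both with rosiglitazone, a PPARγ agonist that drives browning. In 3 libraries (*Ctcflos* KD) the cells had been reverse transfected with a 50 nM LNA Gapmer, an antisense oligonucleotide that directs cleavage of its target, against the long noncoding RNA *Ctcflos*, and in 3 control libraries (NC ctrl) with a nontargeting Gapmer at the same dose, 24 h before harvest. The cells were a mixed primary culture, 1 targeting oligonucleotide was used, and nothing in the labels says that replicates are separate cultures, so that p-values measure the spread between these libraries. In such bulk RNA, fewer cells of a type and less RNA per cell cannot be told apart.

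Depth, recovered from the step of low RPKM values, lay between 60.8 and 75.5 mio mapped reads in *Ctcflos* KD and between 62.9 and 79.2 mio in controls. *Ctcflos*, listed as 1300015D01Rik, had 0.0969, 0.0705 and 0.210 RPKM in *Ctcflos* KD replicates 1 to 3 and 0.748, 0.751 and 0.840 RPKM in the controls, so that 16.1% of the control mean was left. Replicate 3 of the KD held the most *Ctcflos*. The 7 adipocyte markers summed to between 4643 and 6125 RPKM in *Ctcflos* KD and to between 6275 and 6960 RPKM in controls, and 0 of 7 passed the test (limma, 4 at an unadjusted p under 0.05, all lower). The 5 brite markers summed to 61.6 to 81.0 against 108 to 166 RPKM, and 3 of them (*Ucp1*, *Ppargc1a* and *Elovl3*) were called lower. Beside these and the following counts, 12.4% of all genes tested were called lower and 11.5% higher. The 6 macrophage markers summed to 7.20 to 16.7 against 9.09 to 28.2 RPKM, with *Ptprc* and *Itgam* near 0. *Lyz2* made up most of the sum in the controls and in KD replicate 3. In KD replicates 1 and 2, *Lyz2* (1.24 and 1.70 RPKM) lay below *Cd68* (4.12 and 3.44 RPKM). Against the direction of the macrophage sum, *Cd68* was called higher (3.24 ± 0.995 against 1.08 ± 0.727 RPKM, SD, n = 3, log2 fold change 1.05, limma adjusted p = 0.023), and *Csf1r*, below the filter, had 252% of the control mean with no overlap. *Cd14*, also below the filter, went the other way, with 65.3% of the control mean and no overlap, as did *Ptprc*. In limma without the filter, *Csf1r* and *Cd14* were not called (adjusted p = 0.066 and 0.17). The 6 progenitor markers summed to 179 to 399 against 275 to 449 RPKM, most of it *Ly6a*, and 1 of 4 tested was called, *Pdgfra*, which was lower (13.1 ± 0.922 against 21.8 ± 2.57 RPKM, SD, n = 3, -0.69, adjusted p = 0.010). The smooth muscle markers summed to 17.6 to 49.6 against 32.7 to 86.4 RPKM, and the endothelial and lymphocyte lists reached at most 1.45 RPKM in any library. The part of these shifts in the changes of the ribosomal protein mRNAs was not tested.

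Few mitochondrial ribosomal protein mRNAs passed the test after *Ctcflos* KD. In limma on log2(RPKM + 1), with p-values adjusted over all genes tested and a call at an adjusted p under 0.05, 4 of 75 members were lower and 1 was higher, or 6.67%. Over all genes tested, 24.0% were called, 12.4% lower and 11.5% higher. Among the 2349 genes whose control level lay in the middle range of the members (6.80 to 19.2 RPKM), 23.7% were called. At an unadjusted p under 0.05, 15 of 75 members were lower and 2 higher, against 2212 lower and 2344 higher among all 11701 genes tested. The fold changes nevertheless leaned to lower values: 50 members were below and 25 above zero, with a median log2 fold change of -0.094 and a middle range from -0.21 to 0.060, against a median of 0.028 over all genes. The median absolute log2 fold change was 0.13 in the members and 0.23 in all genes. The standard error of a member was between 0.0861 and 0.170 on the log2 scale, and for 54 of 75 members the 95% interval of the log2 fold change lay within 0.5 of zero on both sides.

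**Figure D1:**
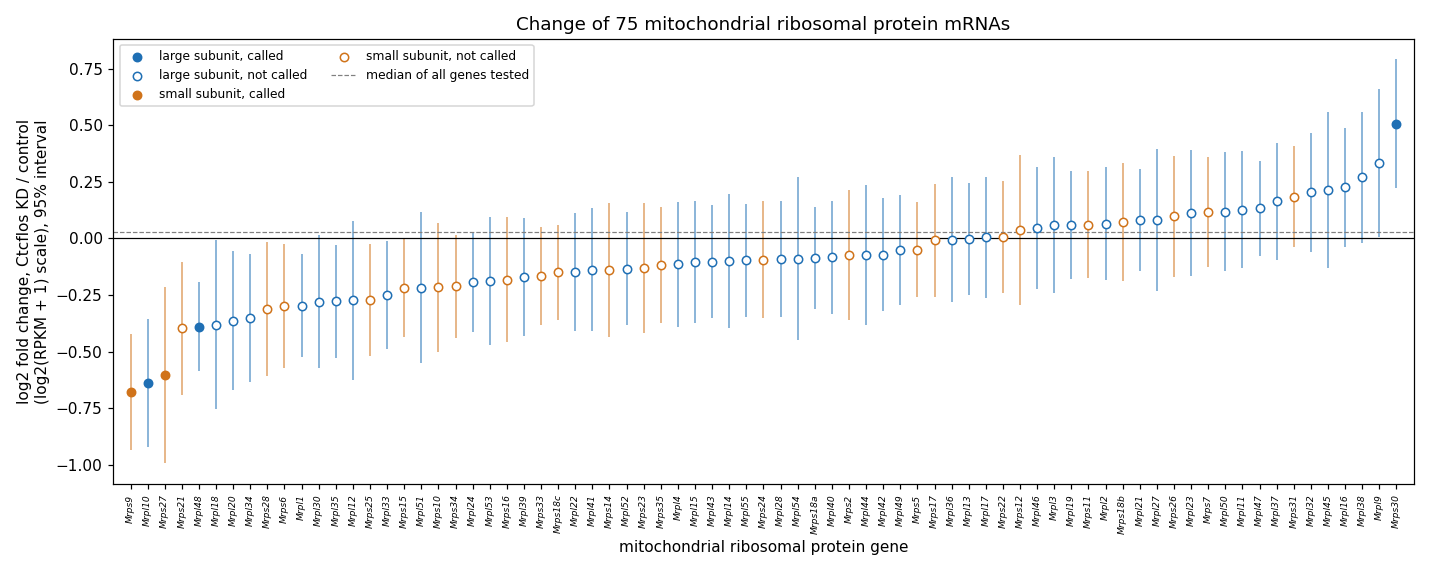
Log2 fold change of *Ctcflos* KD over control (y axis, log2(RPKM + 1) scale) for the 75 tested mitochondrial ribosomal protein genes, ordered from lowest to highest. Points are limma estimates and bars their 95% intervals (3 libraries per group), filled points passed the test (4 lower, 1 higher), and the dashed line is the median of all genes tested at 0.028.

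The RPKM of a member is read per kilobase, so levels can be set side by side, with the reserve that each is a mean over all accessions of a gene. In controls the members spanned 1.21 to 51.5 RPKM with a median of 12.0 RPKM. The summed RPKM of all members was 979, 1059 and 1024 in *Ctcflos* KD and 1108, 1044 and 1181 in controls. These groups overlapped, since KD replicate 2 lay above control replicate 2. The large subunit sum was 701, 759 and 715 RPKM in the KD and 778, 732 and 830 RPKM in controls and overlapped as well. The small subunit sum was 278, 300 and 309 against 330, 312 and 351 RPKM and did not overlap, but KD replicate 3 lay close to control replicate 2. Among all single genes tested, 44.8% did not overlap either. An exact permutation test of 3 libraries against 3 cannot fall below a two-sided p of 0.1 and was not used for these sums.

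Small subunit mRNAs showed a median log2 fold change of -0.14 with 19 of 26 below zero, and 2 were called lower and 0 higher. Large subunit mRNAs had a median of -0.087 with 31 of 49 below zero, and 2 were called lower and 1 higher. The 46 members with a bacterial counterpart (median -0.099, 2 lower, 0 higher) and the 29 members classed as mitochondria-specific (median -0.087, 2 lower, 1 higher) had close medians. The share called was 7.69% in the small and 6.12% in the large subunit. It was 4.35% with a bacterial counterpart and 10.3% in the mitochondria-specific class. Over all genes tested, 24.0% were called and 46.8% were below zero. No difference between these classes was tested.

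*Mrps9*, the counterpart of the bacterial small subunit protein S9, was the member with the strongest decrease. It measured 2.16, 2.25 and 2.94 RPKM in *Ctcflos* KD and 4.38, 4.33 and 4.79 RPKM in controls. All KD libraries lay below all controls, and 54.5% of the control mean was left. The log2 fold change was -0.68 (SE 0.112, limma adjusted p = 0.0085), and all 6 of its accessions with at least 1 RPKM were lower. Without control replicate 3, the adjusted p of *Mrps9* was 0.054 at a log2 fold change of -0.64. The gene (ENSMUSG00000060679) spans chr1:42851233-42905683 on the plus strand of GRCm38 and overlaps *Gm23126* on the opposite strand, and since counting by strand is not stated, reads of such antisense pairs cannot be told apart.

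*Mrps27*, a pentatricopeptide repeat protein of the small subunit with no bacterial counterpart, measured 3.53, 4.23 and 6.17 RPKM in *Ctcflos* KD and 7.51, 6.72 and 8.08 RPKM in controls. The groups did not overlap, but KD replicate 3 lay close to control replicate 2. The mean was 4.64 ± 1.37 against 7.44 ± 0.681 RPKM (SD, n = 3). The log2 fold change of -0.60 (SE 0.170, limma adjusted p = 0.037) had the largest standard error among the members. It lost its call on leaving out KD replicate 1 (adjusted p = 0.10) or 2 (0.11) or control replicate 1 (0.12), 2 (0.068) or 3 (0.13), but not KD replicate 3. Without the filter on low values it was not called either (adjusted p = 0.093). The gene (ENSMUSG00000041632) lies at chr13:99344786-99415562 on the plus strand and overlaps *6430562O15Rik* on the opposite strand.

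*Mrps21*, counterpart of bacterial S21, stood just outside the threshold. It measured 17.9, 21.5 and 22.1 RPKM in the KD and 26.0, 26.0 and 29.8 RPKM in controls, again with no overlap. Its log2 fold change was -0.40 (SE 0.127, limma adjusted p = 0.055), and leaving out KD replicate 3 brought it to -0.45 (adjusted p = 0.029), past the threshold. Without that replicate 41.1% of all genes were called. With any other library left out, *Mrps21* was not called (limma adjusted p between 0.093 and 0.20).

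In the large subunit, *Mrpl10* had the strongest decrease. Its protein is the counterpart of bacterial L10, which anchors the stalk that recruits translation factors. It measured 8.53, 9.32 and 10.6 RPKM in *Ctcflos* KD and 15.4, 13.8 and 16.7 RPKM in controls. No KD library reached a control, and 62.0% of the control mean was left. The log2 fold change was -0.64 (SE 0.123, limma adjusted p = 0.013), with all 4 accessions of at least 1 RPKM lower. Without control replicate 1 or 3, the adjusted p was 0.062 or 0.070. The gene (ENSMUSG00000001445) lies at chr11:97041560-97049213 on the plus strand and overlaps *Gm11574* on the opposite strand. The partner of L10 in the stalk, *Mrpl12*, named here after its values were seen, had 29.6 ± 2.69 against 36.3 ± 6.06 RPKM (SD, n = 3) with overlapping groups and a log2 fold change of -0.27 (limma adjusted p = 0.22).

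*Mrpl48*, a large subunit protein gained in mitochondria, was low in all libraries. It measured 1.51, 1.51 and 1.70 RPKM in the KD and 2.35, 2.29 and 2.48 RPKM in controls. Its standard error of 0.0861 was the smallest of the members, at a log2 fold change of -0.39 (limma adjusted p = 0.018). At such low levels the log2(RPKM + 1) scale compresses both change and spread. With a pseudocount of 0.1 the log2 fold change was -0.56 (limma adjusted p = 0.018). All 7 accessions of at least 1 RPKM were lower. The call was lost without KD replicate 1 (adjusted p = 0.054) or 2 (0.058) or control replicate 1 (0.082) or 3 (0.093). The gene (ENSMUSG00000030706) lies at chr7:100545751-100608301 on the minus strand, overlaps *Rab6a* and 2 other genes on the opposite strand and has an annotated pseudogene, so that its reads cannot be fully assigned.

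*Mrps30*, despite its name a large subunit protein gained in mitochondria, was the member called higher. It measured 15.7, 15.0 and 12.2 RPKM in *Ctcflos* KD and 9.49, 9.23 and 10.4 RPKM in controls. The groups did not overlap, and the KD mean was 147% of control. The log2 fold change was 0.51 (SE 0.124, limma adjusted p = 0.024), and none of its 6 accessions was lower. The call held without KD replicate 3 and was lost without KD replicate 1 (0.075) or 2 (0.076) or control replicate 1 (0.10), 2 (0.073) or 3 (0.080), and also without the filter on low values (0.055). The gene (ENSMUSG00000021731) lies at chr13:118378381-118387252 on the minus strand and overlaps *B430218F22Rik* on the opposite strand.

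**Figure D2:**
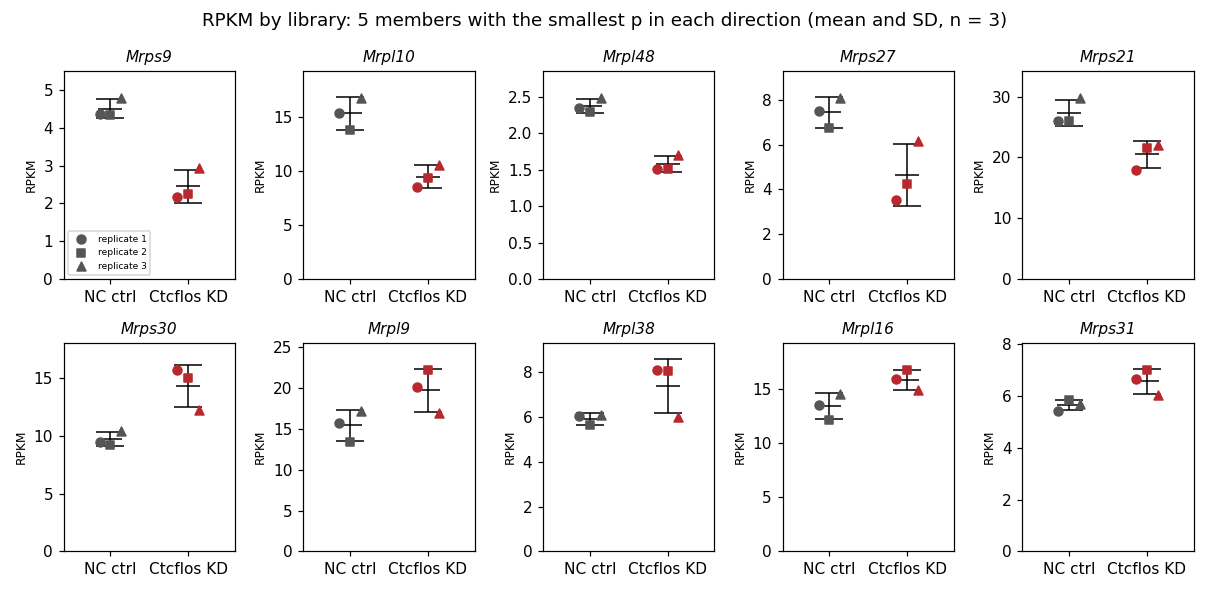
RPKM (y axis, from 0) of the 5 members with the smallest p among those lower (top) and among those higher (bottom) in *Ctcflos* KD, with 1 point per library, shaped by replicate number, and the mean and SD of 3 libraries per group. *Mrps9*, *Mrpl10*, *Mrpl48*, *Mrps27* and *Mrps30* passed the test, and in *Mrpl9* and *Mrpl38* the groups overlap.

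The next members upward did not pass the test. *Mrpl9* measured 20.1, 22.2 and 16.9 RPKM in the KD and 15.7, 13.4 and 17.2 RPKM in controls (log2 fold change 0.33, limma adjusted p = 0.12), and *Mrpl38* measured 8.10, 8.08 and 6.02 against 6.05, 5.63 and 6.09 RPKM (0.27, adjusted p = 0.15). In both, KD replicate 3 lay within the controls, and without it both were called, at an adjusted p of 0.034 and 0.012, as were 41.1% of all genes. Leaving out any other library called neither (limma adjusted p between 0.16 and 0.34). *Mrpl16*, which lies near the tRNA sites of the large subunit, measured 15.9, 16.7 and 14.9 against 13.5, 12.1 and 14.6 RPKM (0.22, adjusted p = 0.18). *Mrps31* measured 6.65, 7.00 and 6.04 against 5.44, 5.84 and 5.68 RPKM (0.18, adjusted p = 0.20). Neither of the last pair overlapped between groups.

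The most abundant members were not among those called. *Mrpl51*, with the highest control level, measured 38.2, 48.6 and 45.8 RPKM in the KD and 51.0, 45.7 and 57.9 RPKM in controls, and the groups overlapped (limma adjusted p = 0.30). *Mrpl20*, a counterpart of an early-binding bacterial protein, measured 32.9, 35.1 and 42.7 against 48.4, 45.4 and 48.7 RPKM, a log2 fold change of -0.36 (adjusted p = 0.082). *Mrps6* measured 36.3, 36.3 and 42.0 against 48.2, 44.6 and 48.6 RPKM (-0.30, adjusted p = 0.10), with the reserve that *Slc5a3* overlaps it on the same strand. In both, every KD library lay below every control. *Mrpl18* measured 25.0, 29.3 and 38.0 against 38.7, 38.5 and 42.2 RPKM (-0.38, adjusted p = 0.12), with KD replicate 3 next to the controls. *Mrps16* had 36.2, 40.0 and 43.4 against 44.0, 44.8 and 47.0 RPKM, the smallest change of these 5 (-0.18, adjusted p = 0.29). Without KD replicate 3, *Mrpl20*, *Mrps6* and *Mrpl18* were called (adjusted p = 0.016, 0.038 and 0.013), in a setting where 41.1% of all genes were called. Leaving out any other library called none of them (limma adjusted p between 0.13 and 0.31). In this order of control levels, the control values of *Mrpl51*, *Mrpl20*, *Mrps6* and *Mrps16* overlapped with each other.

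At the other end, *Mrps36* was near 0, with 0.162, 0.301 and 0.109 RPKM in the KD and 0.268, 0.262 and 0.179 RPKM in controls, and it has 3 named pseudogenes. *Mrps18c* measured 0.917, 1.08 and 0.974 against 1.32, 1.25 and 1.07 RPKM and *Mrps18b* 2.17, 2.40 and 2.25 against 1.70, 2.19 and 2.50 RPKM, both with overlap. *Mrpl13*, *Mrpl17* and *Mrps22* changed least, with 99.7%, 100.3% and 100.1% of the control mean. Their 95% intervals reached from -0.25 to 0.24, from -0.26 to 0.27 and from -0.24 to 0.25 on the log2 scale, so that changes inside these limits remain possible.

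Between groups, 24 of 75 members (32.0%) had no overlap, 19 lower and 5 higher, while 44.8% of all genes tested had none. KD replicate 3 was the KD library nearest to the controls in 16 of the 19 lower and in 4 of the 5 higher members. It was also the KD library with the most *Ctcflos* left, as given above. Among the KD libraries it further had the lowest depth (60.8 mio mapped reads), the lowest brite marker sum (61.6 RPKM) and the highest adipocyte marker sum (6125 RPKM). The relation of these measurements was not tested. Without KD replicate 3, 11 members were called lower and 3 higher, and 41.1% of all genes were called. Leaving out any other library gave 0 to 3 members lower and 0 higher, with 3.16% to 13.5% of all genes called. With every library scaled by its median ratio, 7 members were lower and 1 higher (the added ones were *Mrpl1*, *Mrpl34* and *Mrps21*), while 25.3% of all genes were called.

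**Figure D3:**
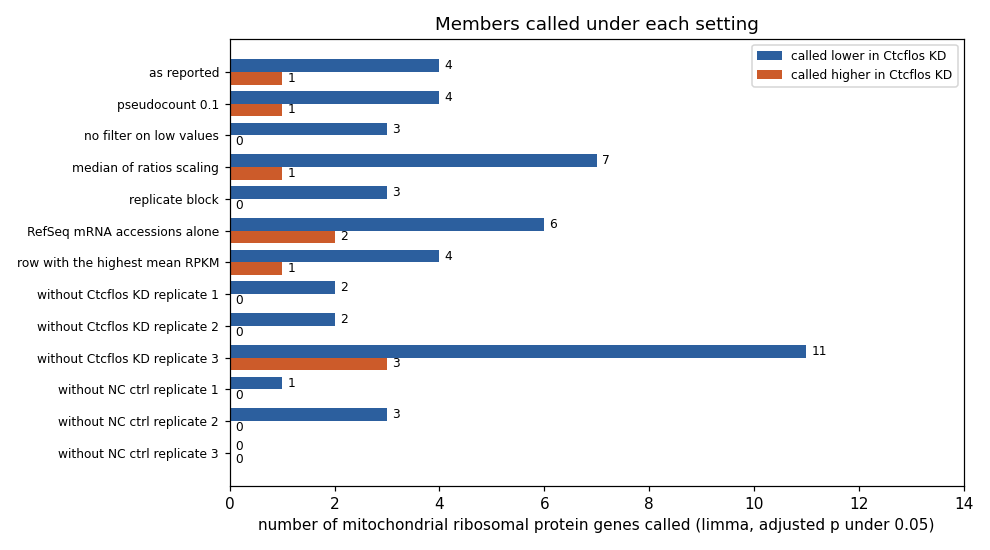
Number of mitochondrial ribosomal protein genes called lower and higher in *Ctcflos* KD (x axis, limma adjusted p under 0.05) as reported and under each other setting (y axis). Calls range from 0 without control replicate 3 to 11 lower and 3 higher without KD replicate 3.

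Most members are short genes. Their annotated span in Gencode vM21 had a median of 7.89 kb, against 20.9 kb over 8949 tested genes with a span. Members of at least 30 kb numbered 8 and were all below zero: *Mrps9*, *Mrps27*, *Mrpl48*, *Mrps28*, *Mrps6*, *Mrpl1*, *Mrpl33* and *Mrps35*, with a median log2 fold change of -0.31 and 3 of 8 (37.5%) called lower. Over all genes of at least 30 kb, 24.2% were called lower with a median of -0.098. The 50 members below 10 kb had a median of -0.086 with 1 lower and 1 higher. All 2543 tested genes below 10 kb had a median of 0.077, with 149 (5.86%) lower and 334 higher. Of the 17 members between these limits 0 were called, with a median of -0.071. Among the 3038 tested genes between them, 262 (8.62%) were lower and 499 higher, with a median of 0.10. Spearman's rho between span and log2 fold change was -0.12 over the 75 members and -0.26 over all genes, given as a description across genes of the same 6 libraries. The limit of 30 kb was set with earlier results known, and with 8 genes these shares rest on few members.

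**Figure D4:**
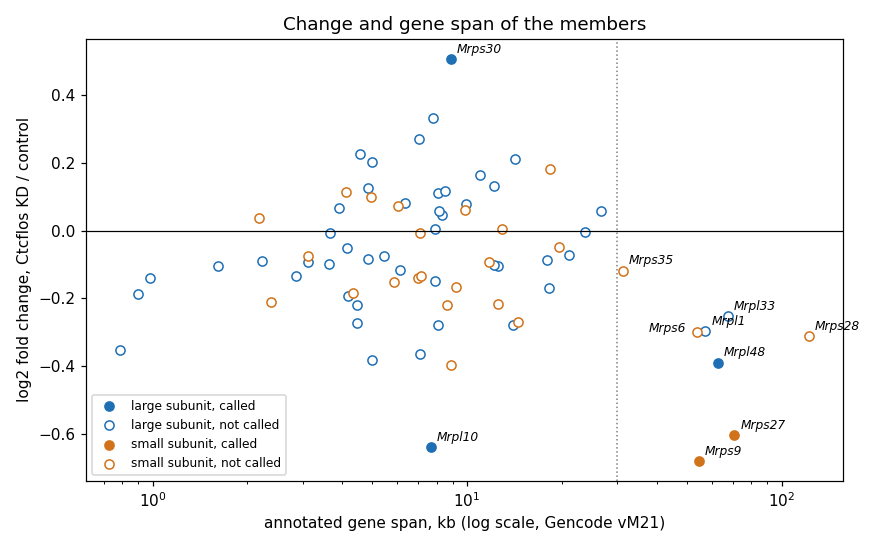
Log2 fold change of *Ctcflos* KD over control (y axis) against annotated gene span in kb (x axis, log scale) for the 75 tested members, filled where called. To the right of the dotted line at 30 kb lie 8 members, all below zero, among them 3 of the 4 called lower, while *Mrpl10* and *Mrps30* are short genes.

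Genes for mitochondrial ribosomal proteins are known for promoters with sites of GABP, NRF1 and YY1, and the windows from 250 bases before to 50 bases after the start of RefSeq genes (GRCm38.p6) were searched on both strands for fixed letters. Of the 76 members 67 had a window. The ETS core bound by GABP (CCGGAAG) was in 24 of 67 (35.8%), against 8.86% of all 32851 windows and 22.3% of 6950 tested genes. The YY1 letters AAGATGGCG were in 8 (11.9%, against 4.27% of tested genes), the palindromic NRF1 motif of 10 bases in 3 (4.48%, against 2.52%), and the E-box CACGTG in 5 (7.46%, against 12.5%). Members with the ETS core had a median log2 fold change of -0.14 (24 genes, 2 lower) and those without -0.074 (42 genes, 2 lower, 1 higher), and no difference was tested. The 250 bases before the start, in the direction of the gene, are shown for the member with the strongest decrease, the member called higher and *Mrps27*, the called member that holds the ETS core next to its annotated start. *Mrpl48* holds it in 1 of 4 windows, at another start. Capitals mark the ETS core, here on the opposite strand, beginning at base -48 of *Mrps27*. The YY1 letters of *Mrps27* begin at base 14 after the start and lie outside the stretch shown.
*Mrps9*, chr1:42850983-42851232, plus strand: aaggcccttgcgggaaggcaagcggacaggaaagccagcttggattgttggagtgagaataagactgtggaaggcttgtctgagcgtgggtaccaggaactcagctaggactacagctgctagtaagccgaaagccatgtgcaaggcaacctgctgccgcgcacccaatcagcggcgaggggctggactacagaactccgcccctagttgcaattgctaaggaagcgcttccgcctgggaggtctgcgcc
*Mrps30*, chr13:118387253-118387502, minus strand: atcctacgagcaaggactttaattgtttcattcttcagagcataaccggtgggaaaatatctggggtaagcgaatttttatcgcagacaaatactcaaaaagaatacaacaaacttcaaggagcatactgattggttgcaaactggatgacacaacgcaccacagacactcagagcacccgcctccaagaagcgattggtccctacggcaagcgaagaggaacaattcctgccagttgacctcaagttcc
*Mrps27*, chr13:99344536-99344785, plus strand: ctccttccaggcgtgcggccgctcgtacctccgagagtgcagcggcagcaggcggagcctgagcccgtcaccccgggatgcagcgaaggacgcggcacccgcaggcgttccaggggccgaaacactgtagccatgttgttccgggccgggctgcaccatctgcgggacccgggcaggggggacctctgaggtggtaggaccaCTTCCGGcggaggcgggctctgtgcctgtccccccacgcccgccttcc
None of the searched letters stands in the windows of *Mrps9* or *Mrps30*. Their upstream bases held 58.4% and 45.2% G and C, and those of *Mrps27* 71.6%.

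The mRNAs of the factors tied to these letters moved in both directions. *Gabpa*, the DNA-binding subunit of GABP, measured 5.24, 5.50 and 6.90 RPKM in *Ctcflos* KD and 12.0, 10.2 and 11.8 RPKM in controls, without overlap (log2 fold change -0.85, limma adjusted p = 0.0069). Its partner *Gabpb1* was higher, with 1.87, 1.89 and 1.22 against 0.863, 1.06 and 0.937 RPKM (0.44, adjusted p = 0.038). *Yy1* was higher as well (10.4, 7.69 and 6.17 against 5.26, 4.12 and 4.67 RPKM, 0.66, adjusted p = 0.031), and *Nrf1* did not pass the test (-0.14, adjusted p = 0.27). Of the 10 regulators of nuclear genes for mitochondria, 3 were lower and 4 higher (70% called, against 24.0% over all genes tested). In *Gabpb1* and *Pprc1* the control mean was below 1 RPKM, so that they passed the filter only through the KD libraries, where they are high. Among the 8 regulators with at least 1 RPKM in both groups 3 were lower and 2 higher (62.5% called, against 22.0% of all such genes). The calls included the coactivators *Ppargc1b* (-0.54, adjusted p = 0.033) and *Ppargc1a* (-0.55, adjusted p = 0.049) among the lower and *Myc* (0.80, adjusted p = 0.038) among the higher.

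Other genes of mitochondrial translation were described from lists, beside the 24.0% called over all genes tested. The 7 ribosomal subunits with other names, among them *Dap3* and *Chchd1*, had 0 calls (limma, 1 at an unadjusted p under 0.05) and a median of -0.012. The assembly and rRNA modification factors had 0 calls among 21 (7 at an unadjusted p under 0.05) and a median of 0.020. Of 15 translation factors 4 were lower and 0 higher (26.7% called, near the share over all genes), with a median of -0.17. *Lrpprc*, which stabilises mitochondrial mRNAs, measured 1.61, 1.68 and 2.69 RPKM in the KD and 3.49, 3.37 and 3.60 RPKM in controls (-0.60, adjusted p = 0.021). *Slirp*, the partner of *Lrpprc* and named after its values were seen, overlapped between groups (0.20, adjusted p = 0.28). The initiation factors *Mtif2* (-0.40, adjusted p = 0.026) and, named beyond the rule, *Mtif3* (-0.41, adjusted p = 0.034) were lower, as was *Mtfmt*, which formylates the initiator tRNA (-0.35, adjusted p = 0.031). *Mtfmt* passed the filter only through the controls, where it is high (0.765 against 1.25 RPKM). Among the 13 factors with at least 1 RPKM in both groups 3 were lower (23.1% called, against 22.0% of all such genes).

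Of 13 mitochondrial aminoacyl-tRNA synthetases 15.4% were called, against 24.0% over all genes tested. *Fars2* was lower, with 2.16, 2.07 and 3.09 against 6.12, 4.79 and 5.86 RPKM (-0.94, limma adjusted p = 0.0069), and *Tars2* was higher (0.38, adjusted p = 0.030). Of 5 genes of mitochondrial transcription 1 was called, *Tfam*, which packages mitochondrial DNA, with 8.89, 9.69 and 7.69 RPKM in the KD and 6.36, 5.91 and 6.53 RPKM in controls (0.42, adjusted p = 0.031). Of the 4 mitochondrially encoded RNAs with at least 1 RPKM in both groups 0 passed in limma, and 0 were at an unadjusted p under 0.05. *COX1*, the most abundant of them, measured 4485, 5359 and 5788 RPKM in the KD and 5887, 6365 and 6014 RPKM in controls, with no overlap (-0.23, adjusted p = 0.25). *COX2* and *COX3* passed the filter only through KD replicate 1, at 7.79 and 7.07 RPKM, and show no change that could be read. The cytosolic ribosomal proteins had a median of 0.17 with 56 of 65 above zero, and 0 were lower and 1 was higher, *Rpl13a* (0.60, adjusted p = 0.033). At an unadjusted p under 0.05 in limma, 11 cytosolic ribosomal proteins were higher and 0 lower. By comparison, 25 of 75 mitochondrial ribosomal proteins and 6220 of all 11701 genes tested were above zero. This contrast of counts was not tested, and genes of 1 list are not independent.

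**Figure D5:**
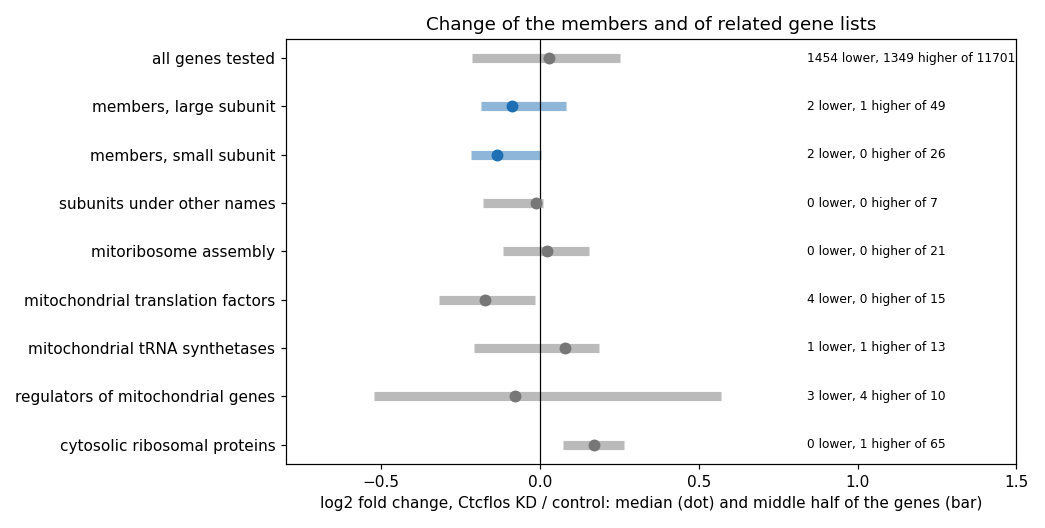
Median log2 fold change of *Ctcflos* KD over control (dot, x axis) and the range from the lower to the upper quartile (bar) for all genes tested, the members by subunit (blue) and related lists (y axis), with the number called beside each. Small subunit members have a median of -0.14, translation factors of -0.17 and cytosolic ribosomal proteins of 0.17.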

How the data were processed

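Total RNA libraries were made with a stranded kit, per the labels, and the authors deposited a table of RPKM values (read numbers divided by transcript length in kb and by library depth) for 6 libraries, with RefSeq, Ensembl and GenBank accessions as rows. How this table was counted is not given in the sources used here. Of 168326 lines, 305 exact repeats were removed. A gene value is the mean RPKM over the rows of a symbol. Overlapping accessions share reads.

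Genes with a mean of at least 1 RPKM were tested with limma-trend on log2(RPKM + 1), which understates changes of low genes, two-sided, with Benjamini-Hochberg adjustment over all genes. The script was tested on simulated data. *Mrps36* and *Ctcflos*, below the filter, come from a fit without it. The members and lists were chosen with earlier results of these data known. Members were named if they had the 5 smallest p in a direction, the 5 highest or 3 lowest control levels, or the 3 smallest changes. In each related list up to 3 called genes per direction were named by smallest p.

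Depth was recovered from Ensembl rows with Gencode vM21 lengths, where at least 93.8% of low values were within 0.05 reads of a whole number, and 1 read on 1 kb is 0.0165 RPKM in the shallowest library. Alternatives were a pseudocount of 0.1, no filter, median-of-ratios scaling, a replicate block, RefSeq mRNA accessions alone, the row with the highest mean, and each library left out. Fits were run with limma 3.58.1 under R 4.3.3, and summaries and plots with numpy 2.4.6, pandas 2.3.3 and matplotlib 3.10.9 under Python 3.11.15.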

Additional observations from a re-analysis of the deposited data

How the results depend on the processing

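The median log2 fold change of the members stayed below zero under every alternative run, from -0.14 to -0.053 with 1 library left out. Counts of calls depended on the libraries: with 1 left out, 0 to 11 members were lower, 0 to 3 were higher, 26 to 39 did not overlap (34.7% to 52.0%, where 49.6% to 63.1% of all genes tested did not) and 369 to 4810 genes were called over all. Without control replicate 3, limma called 0 members, with 6 at an unadjusted p under 0.05. Without a filter, 0 members were higher and 1807 genes were called, where 38335 genes were tested. With median-of-ratios scaling, 7 members were lower, and the median of all genes moved from 0.028 to 0.0044. With RefSeq mRNA accessions alone, 6 members were lower (adding *Mrpl1* and *Mrps21*) and 2 higher (*Mrps30* and *Mrpl47*), with 30.4% of all genes called. With a replicate block, 3 members were lower, 0 were higher and 1671 genes were called, and *Mrpl48* (adjusted p = 0.050) and *Mrps30* (0.066) were not, but same-numbered libraries deviated together only for number 1 (correlation 0.29, against -0.29 and -0.42 for numbers 2 and 3), so that the numbers were not taken as pairs. The cause of these changes was not tested. Over 20 named members and 12 alternatives, 199 values kept direction and call, 21 lost and 8 gained the call and 12 changed sign. The sign changes were in members near zero: *Mrpl17* had -0.024 with scaling, -0.026 on the row with the highest mean and -0.053 to 0.063 with 1 library left out, *Mrps22* had -0.022 with scaling and -0.066 to 0.054, *Mrpl13* -0.056 to 0.050 and *Mrps18b* -0.029 to 0.16 with 1 left out. RPKM carries no counts, so that errors rest on 3 libraries per group.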
